A study of Mus musculus with 8 samples.

Results

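The genes described here are the Wnt ligands, their Frizzled receptors and the secreted inhibitors of the Sfrp and Dkk families. They were chosen by name alone, as every gene of the table whose symbol is Wnt, Fzd, Sfrp or Dkk followed by a number and, where present, the letter a or b. The rule found 37 of 20215 genes, made up of 19 Wnt, 10 Fzd, 4 Sfrp and 4 Dkk genes. Polyadenylated RNA was sequenced from E14 mouse embryonic stem cells held undifferentiated by leukaemia inhibitory factor (ESCs), and from embryoid bodies (EBs), aggregates started in hanging drops in which these cells form many tissues. The 8 groups, of 1 library each, were ESCs and EBs of weeks 1, 2 and 3 from WT E14 cells and from E14 cells labelled Uhrf1 KO. Uhrf1 encodes the protein that brings the maintenance DNA methyltransferase to newly copied DNA. No group had a replicate, the labels name no separate clones or cultures within a genotype, and a feature of the cell line, culture or library cannot be told apart from the genotype at a single stage.

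Levels are given as RPKM, reads per kilobase of transcript, relative to the depth of the library. Depth was estimated at 172800000 and 177300000 reads for the WT and KO ESC libraries and at 12800000 to 46900000 for the EB libraries, with KO week 1 the shallowest. Ranges in parentheses after a ratio are 95% intervals (exact binomial) for the error of counting alone. For Uhrf1 the levels in WT and KO were 78.8 and 45.2 in ESCs, 43.8 and 27.1 at week 1, 36.8 and 34.6 at week 2, and 41.0 and 31.0 at week 3, so the libraries labelled KO still held its RNA at every stage. Such whole-gene levels cannot tell if an exon was missing. The summed level of 5 pluripotency genes was 1062 in WT and 1097 in KO ESCs and 20.9 to 309 in EBs. Pou5f1 still read 111 in WT and 104 in KO EBs at week 3. In such mixed tissue a lower level from fewer cells of a type and one from less RNA per cell cannot be told apart.

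Wnts are lipid-modified secreted proteins that bind Frizzled receptors together with the co-receptors Lrp5 and Lrp6 and thereby stabilise beta-catenin, which acts on DNA with TCF and LEF factors. Other Wnts, Wnt5a among them, act largely through Ror and planar polarity routes without beta-catenin. Sfrp proteins carry a Frizzled-like domain that binds Wnts outside the cell, whereas Dkk1 blocks Lrp5 and Lrp6. In the mouse embryo the pathway patterns the primitive streak and is used again in heart, neural, skin and mesenchymal tissue.

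Because Uhrf1 acts in the upkeep of CpG methylation, the sequence before the start of 4 of these genes is shown with every CG in capitals. Sfrp2, Wnt2 and Dkk2 had the largest mean KO to WT difference among the genes with an RPKM of 5 or more and an entry in the RefSeq promoter table, and Sfrp5 was added after its values were seen. Wnt7b and Dkk3 had no entry. Each sequence holds the 250 bases before the start on the gene's own strand, from RefSeq on GRCm38.p6, at chr3:83766071-83766320 (plus strand) for Sfrp2, chr6:18030446-18030695 (minus strand) for Wnt2, chr3:132085042-132085291 (plus strand) for Dkk2 and chr19:42202253-42202502 (minus strand) for Sfrp5.
Sfrp2: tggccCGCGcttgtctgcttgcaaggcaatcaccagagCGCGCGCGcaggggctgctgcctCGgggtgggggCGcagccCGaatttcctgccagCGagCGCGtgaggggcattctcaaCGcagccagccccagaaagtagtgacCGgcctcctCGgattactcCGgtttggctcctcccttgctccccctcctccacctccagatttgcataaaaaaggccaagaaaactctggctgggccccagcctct
Wnt2: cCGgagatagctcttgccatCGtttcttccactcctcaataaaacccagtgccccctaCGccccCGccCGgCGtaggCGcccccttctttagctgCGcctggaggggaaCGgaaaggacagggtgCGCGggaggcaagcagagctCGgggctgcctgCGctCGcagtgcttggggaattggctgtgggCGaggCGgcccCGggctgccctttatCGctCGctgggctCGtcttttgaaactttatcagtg
Dkk2: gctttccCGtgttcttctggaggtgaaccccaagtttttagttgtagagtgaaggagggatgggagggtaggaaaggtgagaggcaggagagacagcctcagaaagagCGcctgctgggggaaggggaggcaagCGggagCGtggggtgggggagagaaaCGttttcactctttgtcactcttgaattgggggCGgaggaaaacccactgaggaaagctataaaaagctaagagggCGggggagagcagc
Sfrp5: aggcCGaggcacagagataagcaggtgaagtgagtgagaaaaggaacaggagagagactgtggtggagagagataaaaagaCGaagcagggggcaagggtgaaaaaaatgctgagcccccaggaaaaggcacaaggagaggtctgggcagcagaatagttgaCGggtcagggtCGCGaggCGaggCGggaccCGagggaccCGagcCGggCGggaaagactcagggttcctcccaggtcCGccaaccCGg
The Wnt2 sequence held 20 CG dinucleotides and those of Sfrp2, Sfrp5 and Dkk2 held 16, 13 and 7. Relative to the number that base composition gives, these counts were 0.79 for Wnt2, 0.66 for Sfrp5, 0.64 for Sfrp2 and 0.45 for Dkk2. Sfrp2 and Sfrp5 lay close to each other on this measure. A part of CpG content in the differences between genotypes was not tested. Windows of 300 bases, reaching 50 bases past the start, were found for 25 of the 37 genes and numbered 28. Their median CpG ratio was 0.75, against 0.60 over the 17858 windows of genes in the table, and it was 0.6 or more in 21 of 28 windows (75%) against 50.3% of those windows. The TCF/LEF core CTTTGAT, searched on both strands, occurred in 2 of the 28 windows, 1 of Wnt5b and 1 of Wnt11 (7.14%), and in 3.12% of windows of genes in the table. Methylation of these sequences was not measured here.

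Which of the genes were used at all was read from their highest level. An RPKM of 5 was reached in at least 1 library by 17 of the 37 genes, against 52.6% of all genes, and 14 more peaked between 1 and 5. The remaining 6 genes (Wnt2b, Wnt3a, Wnt9b, Wnt10b, Wnt16 and Dkk4) stayed under 1 in all 8 libraries, with Dkk4 listed at 0 in 6 of them. ESCs expressed few ligands, whereas 7 of the 10 Frizzled genes reached an RPKM of 1 there in at least 1 genotype.

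**Figure D1:**
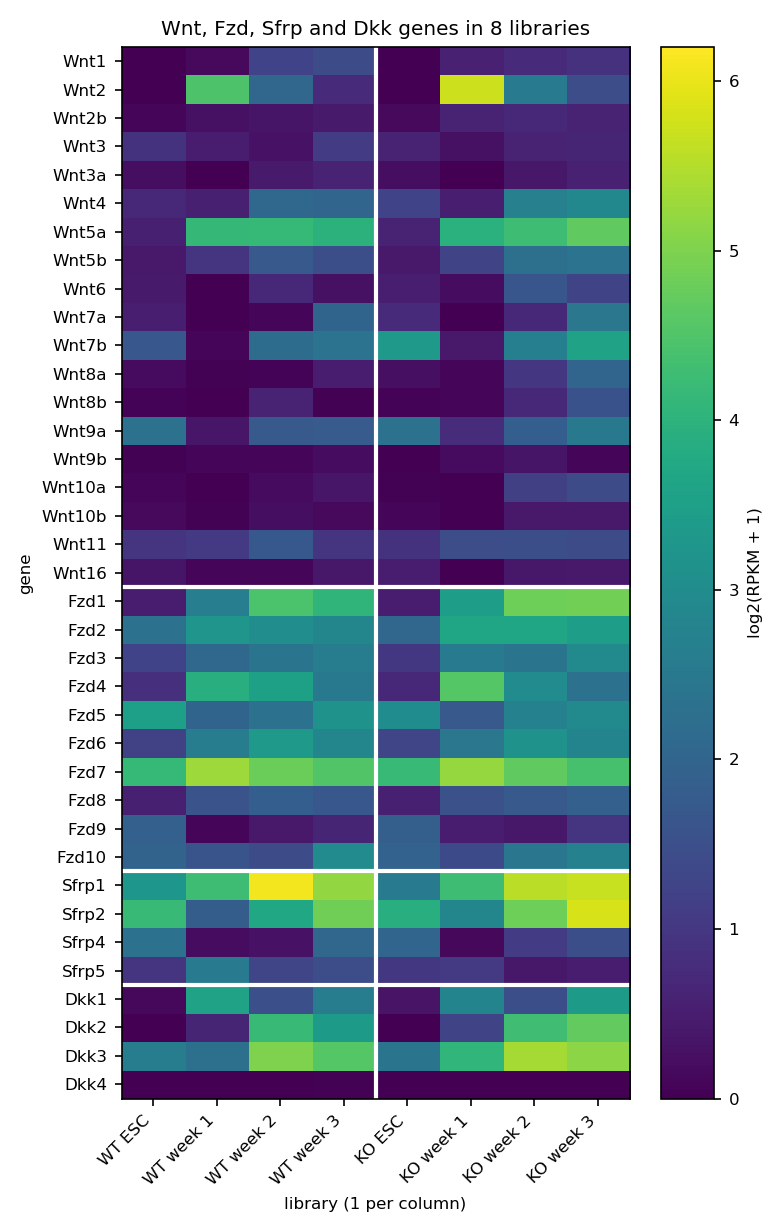
Levels of the 37 genes (rows, grouped as Wnt, Fzd, Sfrp and Dkk between white lines) in the 8 libraries (columns, WT left and KO right of the white line), as log2(RPKM + 1) from dark (0) to yellow. Wnt2 was brightest at week 1 in both genotypes, Fzd7 was present throughout, and Dkk4 was dark in all 8 libraries.

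Among the ligands, Wnt5a, which guides outgrowth of limbs and the body axis, switched on with differentiation in both genotypes. Its RPKM was 0.461, 16.4, 16.7 and 14.8 in WT ESCs and weeks 1 to 3, and 0.505, 14.4, 18.4 and 24.8 in KO. The EB libraries all lay far above the ESC libraries, and the genotypes parted only at week 3, where KO was 1.67-fold higher (1.59 to 1.75). After scaling to an equal RPKM total this week 3 difference fell short of 1.5-fold on the RPKM + 1 scale (log2 difference 0.57 in place of 0.70).

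Wnt2 (mm9 chromosome 6, 17938940 to 17980585, minus strand), a ligand needed for placenta and lung in the mouse, appeared as a sharp peak at week 1. It read 0.0027, 21.1, 3.12 and 0.676 in WT and 0.0106, 52.4, 4.84 and 1.77 in KO, in the same order of stages. It was practically silent in ESCs and had fallen 6.79-fold in WT (5.92 to 7.82) and 10.8-fold in KO (9.34 to 12.5) from week 1 to week 2. KO lay above WT at each EB stage, by 2.48-fold at week 1 (2.32 to 2.65), 1.55-fold at week 2 (1.29 to 1.89) and 2.62-fold at week 3 (1.79 to 3.79). At week 1 Wnt2 and Wnt5a made up 51.3% and 39.7% of all Wnt RPKM in WT, and 71.6% and 19.7% in KO.

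Wnt7b (chromosome 15, 85365869 to 85412251, minus strand), a ligand of placental, lung and kidney epithelium, had the reverse course, with levels in ESCs, a trough at week 1 and a return thereafter. Its RPKM was 2.21, 0.0609, 3.59 and 4.14 in WT and 9.06, 0.334, 5.43 and 10.9 in KO. KO was higher in 4 of 4 stage pairs, with 4.11-fold in ESCs (3.87 to 4.37), 5.49-fold at the low levels of week 1 (2.31 to 13.7), 1.51-fold at week 2 (1.31 to 1.75) and 2.62-fold at week 3 (2.33 to 2.95). It supplied 47.9% of Wnt RPKM in KO ESCs and 19.8% in WT ESCs, where Wnt9a supplied 35.4%. In ESCs 2 of 3 compared markers of epithelium (Krt7 and Krt14) and 2 of 2 of trophoblast (Hand1 and Plac1) were also 1.5-fold or more higher in KO, with list sums of 185 against 123 and 10.2 against 1.92, and their part in the Wnt7b difference was not tested.

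Wnt4, which acts in kidney and ovary development, read 0.646, 0.459, 3.19 and 3.09 in WT and 1.36, 0.446, 5.47 and 6.47 in KO. The week 1 values were alike, and KO was 2.11-fold higher in ESCs (1.89 to 2.36), 1.72-fold at week 2 (1.499 to 1.96) and 2.10-fold at week 3 (1.84 to 2.39). On the RPKM + 1 scale used for calls, which understates low levels, the ESC difference stayed under 1.5-fold, and that of week 2 did so with scaling by median ratios (0.57 against 0.63 in log2) or to an equal RPKM total (0.54).

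Wnt5b, a relative of Wnt5a, read 0.341, 0.898, 2.32 and 1.78 in WT and 0.338, 1.40, 3.89 and 4.17 in KO, so that the genotypes were alike in ESCs and KO was higher at each EB stage. Wnt9a, known from joint formation, was an ESC ligand that dipped at week 1. It read 3.95, 0.304, 2.34 and 2.42 in WT and 4.06, 0.722, 2.63 and 4.72 in KO, with 1.95-fold more in KO at week 3 (1.65 to 2.31). Wnt1, which patterns the midbrain, was among the few ligands that read lower in KO at weeks 2 and 3, with 0.0024, 0.116, 1.39 and 1.72 in WT and 0.0070, 0.486, 0.665 and 0.859 in KO.

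Of the other 12 Wnt genes, 7 reached an RPKM of 1, and 5 of these (Wnt6, Wnt7a, Wnt8a, Wnt8b and Wnt10a) peaked in a KO library. Wnt8a, a ligand of the primitive streak, rested on 0.389 in WT and 3.05 in KO at week 3 (7.84-fold, 4.87 to 12.8), and Wnt8b, a forebrain ligand, on 0.0231 and 1.93 (83.5-fold, 24.1 to 354, with 3 reads estimated in WT). Wnt6 and Wnt10a, found in skin and tooth epithelium, read 0.209 and 0.291 in WT and 1.42 and 1.73 in KO at week 3. These genes stayed at an RPKM of 3.05 or less in every library, so all 4 were minor next to Wnt5a. Wnt7a peaked at 4.46 in KO at week 3, and Wnt3 and Wnt11 peaked in WT at 1.16 (week 3) and 2.28 (week 2).

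Summed over the 19 genes, Wnt RPKM was 11.2, 41.2, 37.5 and 36.1 in WT and 18.9, 73.1, 51.2 and 70.2 in KO. The sum was thus higher in KO in 4 of 4 pairs, by 1.70-, 1.77-, 1.37- and 1.95-fold, with a mean log2 difference of 0.75 ± 0.22 (SD, n = 4 stage pairs). An exact two-sided sign-flip permutation test over the pairs gave p = 0.125, the smallest that 4 pairs allow. The gene behind the excess changed with stage, from Wnt7b in ESCs to Wnt2 at week 1 and to several ligands at week 3.

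**Figure D2:**
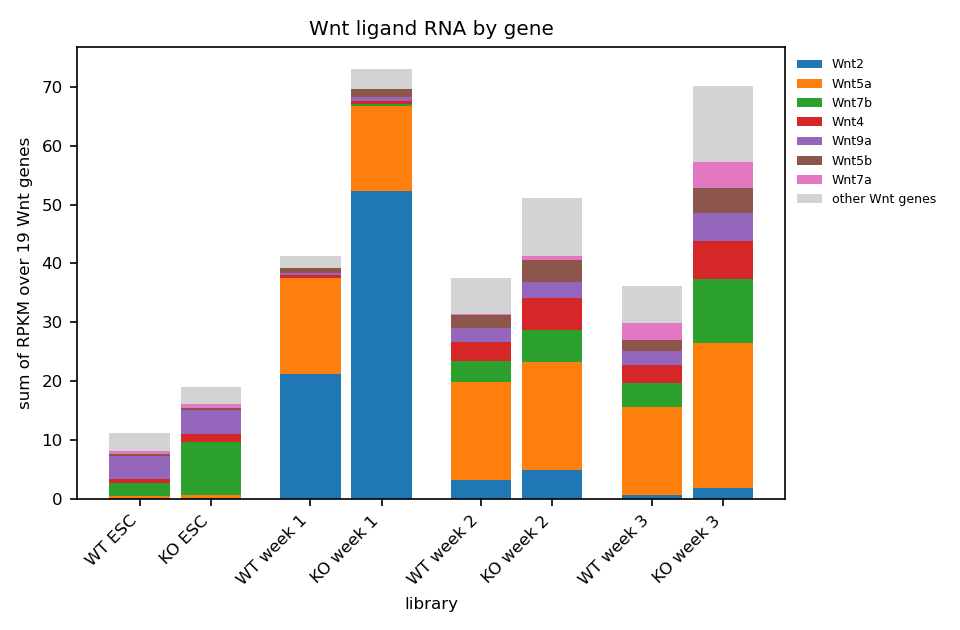
Summed RPKM of the 19 Wnt genes in each library (bars from 0, WT and KO side by side at each stage), split by gene. The KO bar was the taller at each stage, with Wnt7b (green) filling much of it in ESCs and Wnt2 (blue) most of it at week 1.

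Frizzled receptors differed less between genotypes. Fzd7 was the most abundant of the 10 in 6 of 8 libraries and was nearly the same in both, with 16.9, 38.1, 27.1 and 21.9 in WT and 17.1, 36.1, 24.6 and 20.01 in KO. The ratio of KO to WT lay between 0.909 and 1.01 at the 4 stages. Fzd6, which with Fzd3 orients cells in planar polarity, also stayed within 1.5-fold at all 4 stages (ratios of 0.887 to 1.14), with 1.29, 5.03, 8.99 and 6.22 in WT and 1.47, 4.46, 8.05 and 5.96 in KO.

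Fzd1 (chromosome 5, 4753842 to 4758216, minus strand) had the largest mean KO to WT difference in EBs among the receptors. It read 0.393, 5.29, 20.8 and 15.7 in WT and 0.378, 10.2, 27.6 and 28.7 in KO, which is 1.93-fold at week 1 (1.74 to 2.14), 1.33-fold at week 2 (1.26 to 1.40) and 1.82-fold at week 3 (1.72 to 1.93). In KO at weeks 2 and 3 it was above Fzd7. Fzd2 went the same way by less, with 3.95, 8.38, 7.23 and 6.24 in WT and 3.13, 11.5, 11.6 and 10.2 in KO. Its calls at weeks 2 and 3 (log2 differences of 0.61 and 0.62) were lost with scaling to an equal RPKM total (0.51 and 0.50), that of week 2 also with median ratios (0.55) and that of week 3 with upper-quartile scaling (0.56).

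Fzd4, also the receptor for Norrin in retinal vessels, changed order during the course, with 0.771, 13.9, 10.4 and 4.65 in WT and 0.620, 22.7, 6.999 and 3.94 in KO. KO was 1.63-fold higher at week 1 (1.52 to 1.75) and WT 1.49-fold higher at week 2 (1.34 to 1.66). Fzd10 was higher in KO at week 2 only, where it read 4.43 against 1.73 (2.55-fold, 2.10 to 3.08), and was 2.90, 2.05 and 6.96 in WT and 2.85, 1.64 and 5.59 in KO at the other stages. Fzd3 read 1.37, 3.22, 4.26 and 5.21 in WT and 1.02, 5.03, 4.22 and 6.88 in KO.

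Fzd5, needed for yolk sac vessels in the mouse, and Fzd9 were the receptors whose own highest level fell in WT ESCs. Fzd5 read 10.3, 2.98, 3.97 and 8.13 in WT and 7.10, 2.31, 5.64 and 6.67 in KO, and Fzd9 read 2.72, 0.0608, 0.339 and 0.563 in WT and 2.65, 0.405, 0.317 and 0.899 in KO. Fzd8 was low and alike, with 0.447, 2.00, 2.64 and 2.20 in WT and 0.456, 1.92, 2.32 and 2.74 in KO. The summed receptor RPKM was 41.1, 81.1, 87.5 and 77.8 in WT and 36.7, 96.3, 95.8 and 91.5 in KO, with a mean log2 difference of 0.11 ± 0.19 (SD, n = 4 pairs, 3 of 4 higher in KO, exact permutation p = 0.375).

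The Sfrp genes did not move as a group. Sfrp2 (chromosome 3, 83570243 to 83578238, plus strand) was higher in KO EBs, Sfrp5 (chromosome 19, 42272461 to 42276742, minus strand) was lower, and Sfrp1 changed order with stage. Sfrp2 read 17.4, 2.52, 11.9 and 28.1 in WT and 13.9, 6.14, 27.5 and 56.0 in KO. In ESCs KO was 0.797 of WT (0.767 to 0.827), and it was 2.43-fold higher at week 1 (1.98 to 3.00), 2.32-fold at week 2 (2.11 to 2.55) and 1.99-fold at week 3 (1.87 to 2.12). Over the 3 EB weeks the log2 difference was 1.04 ± 0.09 (SD, n = 3 weeks), the smallest SD among genes whose mean EB difference passed 1.5-fold.

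Sfrp5 read 0.896, 4.94, 1.46 and 1.77 in WT and 1.01, 1.08, 0.329 and 0.404 in KO. The genotypes were close in ESCs, and KO EBs did not show the week 1 peak of WT. WT was 4.59-fold higher at week 1 (3.12 to 7.18), 4.43-fold at week 2 (2.42 to 8.92) and 4.38-fold at week 3 (2.52 to 8.32), at levels under 5 throughout.

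Sfrp1 was the most abundant inhibitor at week 2, with 8.63, 18.3, 66.8 and 35.9 in WT and 4.90, 18.4, 45.9 and 49.9 in KO. WT was 1.76-fold higher in ESCs (1.69 to 1.83), the week 1 levels were alike, and WT was 1.45-fold higher at week 2 (1.40 to 1.51) before KO passed it by 1.39-fold at week 3 (1.33 to 1.45). Sfrp4 was present in ESCs and again at week 3, with 3.99, 0.149, 0.235 and 3.14 in WT and 3.03, 0.0904, 1.11 and 1.83 in KO. Feeder fibroblasts were among the plate coatings named for ESC culture. The 6 markers of fibroblasts and mesenchyme summed to 17.3 in WT and 12.0 in KO ESCs. Of the 4 that could be compared 1, Col1a1, was lower in KO (5.80 and 2.49), and 3 stayed within 1.5-fold. These 3 went both ways, with Thy1 at 9.37 in WT and 6.62 in KO, Col1a2 at 0.679 and 1.31 and Twist1 at 1.37 and 1.40. A part of such cells in the ESC levels of Sfrp1 was not tested.

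The 3 detected Dkk genes were higher in EBs than in ESCs on average, along different courses. Dkk1, which the early embryo needs to form a head, read 0.0930, 10.9, 1.85 and 5.14 in WT and 0.248, 5.94, 1.83 and 9.42 in KO. WT was 1.84-fold higher at week 1 (1.58 to 2.16), the genotypes were alike at week 2, and KO was 1.83-fold higher at week 3 (1.59 to 2.10). Dkk2 (chromosome 3, 131748256 to 131843257, plus strand), which binds Lrp6 and is known from eye development, read 0.0030, 0.562, 17.4 and 9.47 in WT and 0.0043, 1.42, 18.5 and 25.2 in KO. It was alike at week 2 and 2.66-fold higher in KO at week 3 (2.46 to 2.86).

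Dkk3 (chromosome 7, 119259533 to 119302571, minus strand), a divergent member of the family, read 5.21, 3.89, 30.9 and 22.5 in WT and 4.25, 15.9, 40.0 and 33.6 in KO. KO was higher at each EB stage, with 4.07-fold more at week 1 (3.65 to 4.55), 1.29-fold at week 2 (1.23 to 1.36) and 1.49-fold at week 3 (1.41 to 1.58). The summed Dkk level had a mean log2 difference of 0.37 ± 0.48 (SD, n = 4 pairs, 3 of 4 higher in KO, exact permutation p = 0.25), and that of the Sfrp genes was 0.02 ± 0.45 (SD, n = 4 pairs, 1 of 4 higher in KO, exact permutation p = 1).

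**Figure D3:**
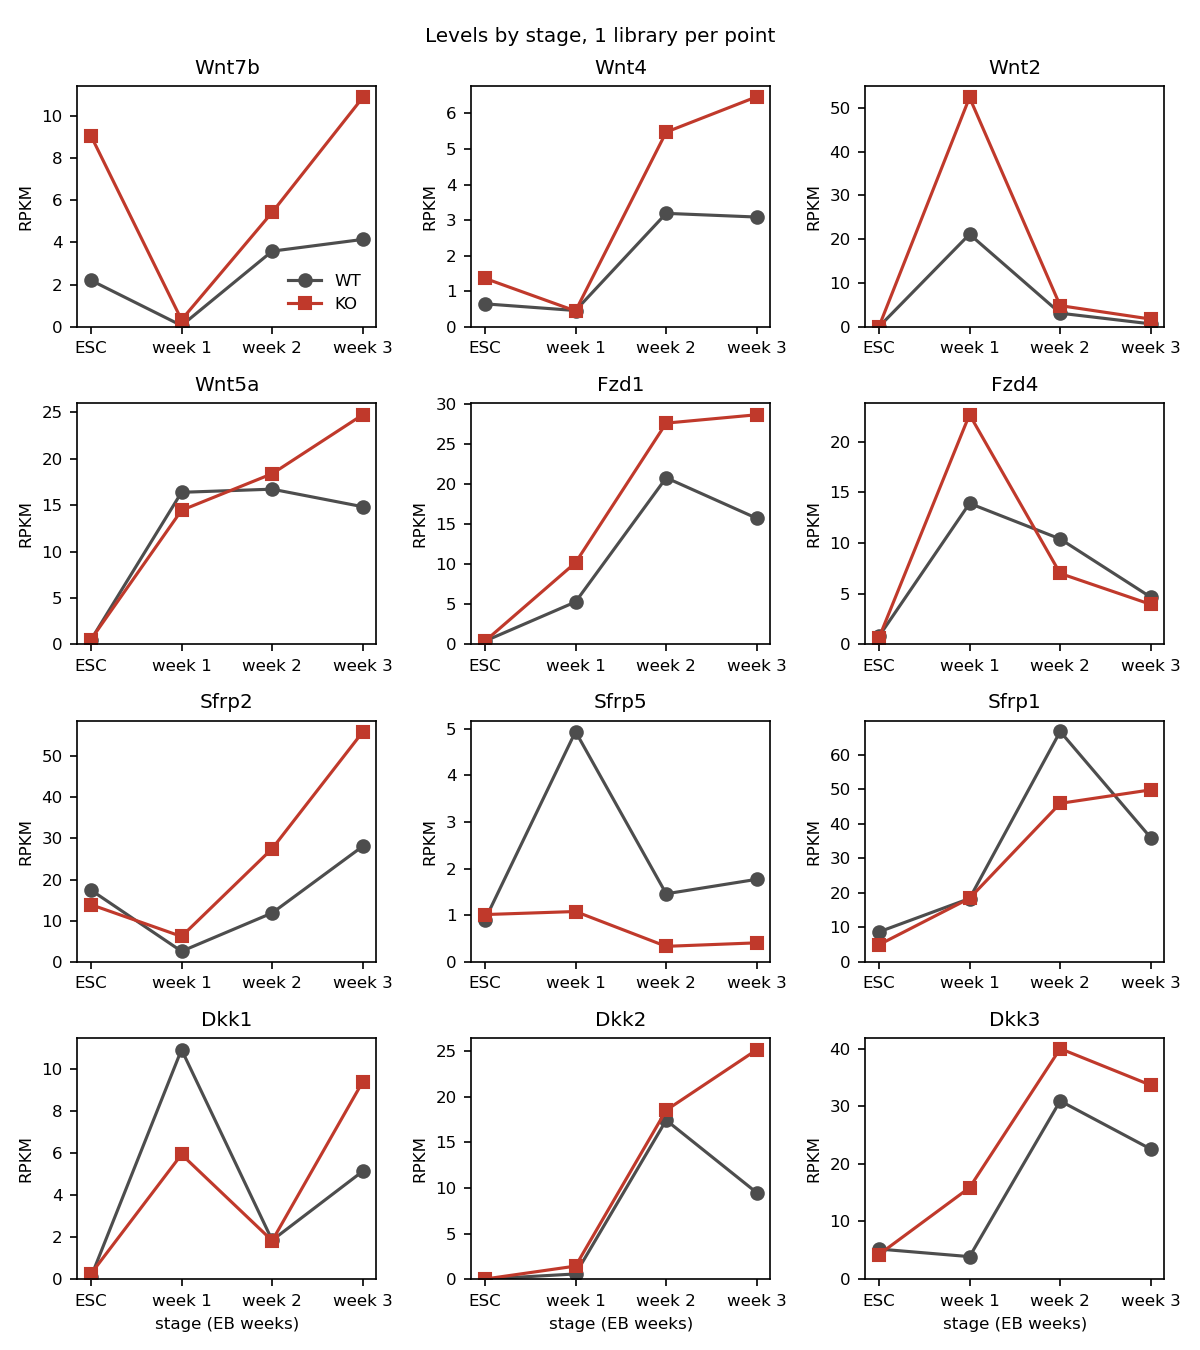
RPKM (vertical axes from 0, each panel on its own scale) of 12 genes in ESCs and EBs at weeks 1 to 3, with WT as grey circles and KO as red squares, 1 library per point. In KO, Sfrp2 lay above WT at all 3 EB weeks and Sfrp5 below it, whereas the lines of Dkk1 and Sfrp1 crossed before week 3.

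The stage comparison counted how many of the genes differed by 1.5-fold or more, on RPKM + 1, among those whose level reached 1 in either library. In ESCs 15 of the 37 could be compared, 1 was higher in KO (Wnt7b) and 1 lower (Sfrp1), beside 3.84% higher and 2.29% lower of all 11053 genes compared. At week 1, of 19 genes, 6 were higher (Wnt2, Fzd1, Fzd4, Sfrp2, Dkk2 and Dkk3) and 2 lower (Sfrp5 and Dkk1), beside 8.37% and 6.22% of all genes. At week 2, of 26 genes, 7 were higher (Wnt4, Wnt6, Wnt10a, Fzd2, Fzd10, Sfrp2 and Sfrp4) and 1 lower (Sfrp5), beside 10.0% and 6.42%. At week 3, of 30 genes, 15 were higher (10 Wnt genes with Fzd1, Fzd2, Sfrp2, Dkk1 and Dkk2) and 1 lower (Sfrp5), beside 7.65% and 7.69%.

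Some genes entered a comparison through a single library, which favours genes that differ. At week 3 these were 9 genes, 6 of them through KO, and 3 of the 9 (Wnt1, Wnt3 and Wnt11) stayed within 1.5-fold. With an RPKM of 1 or more required in both libraries, 5 of 17 genes were higher at week 1 beside 6.08% of all genes, 4 of 21 at week 2 beside 6.79%, and 10 of 21 at week 3 beside 6.11%. At week 3 these 10 were Wnt4, Wnt5a, Wnt5b, Wnt7b, Wnt9a, Fzd1, Fzd2, Sfrp2, Dkk1 and Dkk2. In the same order, 2, 0 and 0 genes were lower, beside 572 of 10738, 648 of 11679 and 632 of 11967 over all genes. With so few of the Wnt, Fzd, Sfrp and Dkk genes compared, a count of 0 lies near those shares. The median log2 difference of the genes compared was -0.03 in ESCs, 0.34 at week 1, 0.25 at week 2 and 0.59 at week 3, beside 0.04, 0.01, 0.05 and 0.02 over all genes. With 1 library per genotype these shares carry no test.

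**Figure D4:**
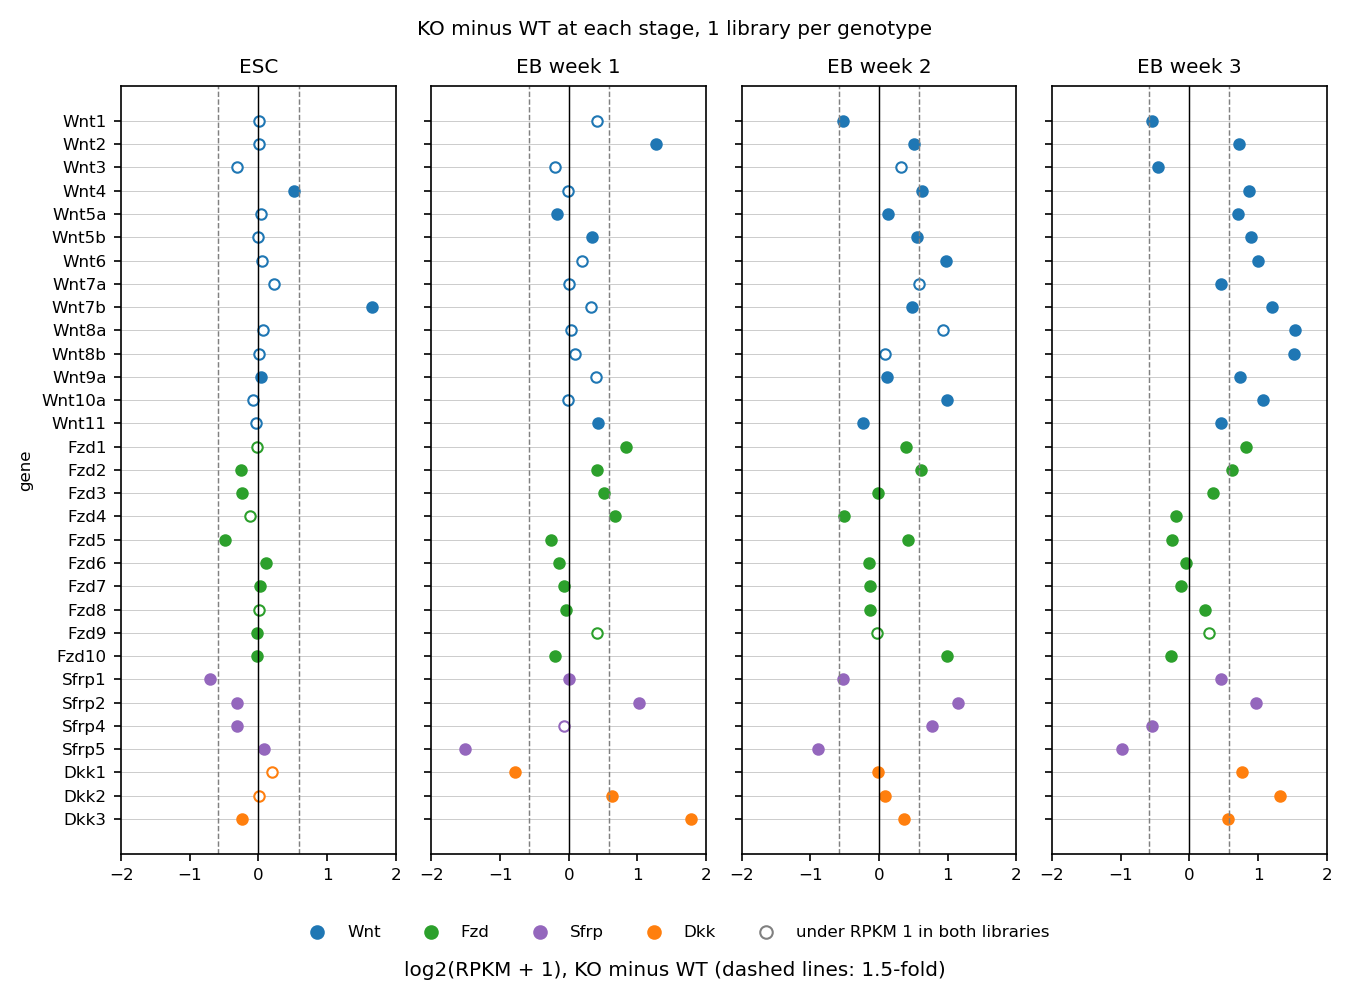
KO minus WT of log2(RPKM + 1) at each stage for the 31 genes that reached an RPKM of 1, coloured by family, with 1.5-fold marked by dashed lines and genes under 1 in both libraries as open circles. At week 3, 15 points lay beyond the right line and 1, Sfrp5, beyond the left.

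Other tissues of the EBs also differed between the libraries in which these genes differed. At week 1 all 5 cardiomyocyte markers were 1.5-fold or more higher in KO, with a summed RPKM of 3834 against 986. Mesenchymal markers summed to 182 against 94.98, with 2 of 5 compared higher (Col1a1 and Postn). Wnt2, Fzd1, Fzd4 and Dkk3 were higher beside them. In the same KO library, where Sfrp5 and Dkk1 were lower, 2 of 3 compared epithelial markers were higher (Krt7 and Krt14), and 3 of 5 visceral endoderm markers (Ttr, Apoa1 and Apob, with Afp higher), the endothelial Cdh5 and the trophoblast Cdx2 were lower. The visceral endoderm sum itself was higher in KO at week 1 (1203 against 760), with Afp at 894 in KO and 147 in WT. At week 2 all 5 cardiomyocyte and all 5 visceral endoderm markers were lower in KO (450 against 1157 and 1274 against 5957), and 3 of 5 epithelial and 4 of 5 pluripotency markers were higher (185 against 151 and 144 against 56.1). All 4 trophoblast markers (9.26 against 24.9) and 2 of 3 endothelial markers (Cdh5 and Kdr, list sum 77.3 against 103.5) were lower in KO at week 2 as well, where Fzd4 read lower. At week 3, beside the 15 higher genes, 4 of 5 epithelial markers were higher in KO, with a sum of 276 against 173, while 4 of 5 visceral endoderm markers (57.3 against 1088), all 5 cardiomyocyte markers (324 against 655) and 3 of 5 neural markers (26.1 against 73.6) were lower. Mesenchymal markers summed to 1045 in KO and 923 in WT at week 2, with 1 of 6 higher (Thy1). At week 3 they summed to 698 and 713, again with 1 of 6 higher (Postn). Of 3 neural markers compared at week 2, 2 were higher in KO (Tubb3 and Sox1, list sum 16.6 against 7.52). Tpbpa, of the trophoblast list, was listed at 0 in 4 of the 8 libraries, and no marker of the other lists named here was at 0 in any. Their part in the differences of Wnt pathway genes was not tested.

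Over all 4 stages, with stage as a block, a limma fit of 13249 genes included 28 of the 37. None of the 28 passed an adjusted p of 0.05 for KO against WT, beside 0% of all genes, while 8 had an unadjusted limma p under 0.05, beside 15.0% of all genes. The 8 were Wnt2, Wnt4, Wnt5b, Wnt6, Wnt7b, Fzd1 and Sfrp2, higher in KO, and Sfrp5, lower. Wnt7b had the largest mean log2 difference at 0.92 ± 0.24 (SE, limma adjusted p = 0.217, higher in 4 of 4 pairs), followed in size by Sfrp5 at -0.82 ± 0.27 (adjusted p = 0.27, lower in 3 of 4), Sfrp2 at 0.71 ± 0.26 (adjusted p = 0.306, higher in 3 of 4) and Wnt2 at 0.63 ± 0.21 (adjusted p = 0.283, higher in 4 of 4). For Wnt2 the ESC pair in this count rested on an estimated 1 read in WT and 4 in KO. The mean log2 difference was positive in 20 of 28 genes (71.4%), beside 58.7% of all genes. The fit takes the 4 stages of a line as its replicates and has 3 residual degrees of freedom.

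Whether the KO effect in EBs differed from that in ESCs was tested with an added limma term. It called none of the 28 genes, beside 1 gene of 13249 (0.00755%), the small nucleolar RNA Snord99, which was named after its value was seen. At an unadjusted limma p under 0.05 it held 3 of the 28 (Fzd2, Sfrp2 and Sfrp5), beside 3.68% of all genes. For Sfrp2 the KO effect was 1.35 ± 0.16 higher in EBs on the log2 scale (SE, limma adjusted p = 0.999), and for Sfrp5 it was -1.21 ± 0.38 (adjusted p = 0.999).

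EBs were compared with ESCs over both genotypes in the first limma fit. Its SEs and p-values rest on how far the KO to WT difference varied over the stages. The spread among the 3 EB weeks and between repeat cultures does not enter them, and each genotype had 1 ESC library. Of the 28 genes 16 were higher and 4 lower in EBs, beside 43.9% higher and 28.7% lower of all genes, so that a large part of the transcriptome changed with these genes. The largest rises were those of Wnt5a (log2 difference 3.63 ± 0.18 SE, limma adjusted p = 0.000103), Fzd1 (3.59 ± 0.19, adjusted p = 0.00011), Dkk2 (3.08 ± 0.28, adjusted p = 0.000336) and Wnt2 (2.83 ± 0.24, adjusted p = 0.000299). Fzd4, Dkk1, Sfrp1 and Dkk3 rose by 2.54, 2.34, 2.26 and 1.88, and Wnt1, Wnt4, Wnt5b, Fzd2, Fzd3, Fzd6, Fzd7 and Fzd8 by 0.65 to 1.61. Fzd9, Sfrp4, Wnt9a and Fzd5 fell by 1.39, 1.29, 0.81 and 0.78. The calls of Wnt9a and Fzd5 rested on week 1, without which their differences were -0.35 and -0.47 and not called, and that of Wnt4 (0.81) was lost without week 2 (0.52) or week 3 (0.48).

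The rest of the pathway was read from 66 further genes in 8 lists, from co-receptors to direct targets. In the limma fit 58 of them were included, none was called for KO against WT, and 7 had an unadjusted limma p under 0.05 (Notum, Kremen1, Nkd2, Tcf7, Lef1, Tcf7l1 and Tnfrsf19), all higher in KO. These were 12.1% of the 58, beside 15.0% of all genes. EBs against ESCs gave 32 higher and 16 lower of the 58, beside 43.9% and 28.7% of all genes. At single stages 1 of 46 genes compared was 1.5-fold or more higher and 1 lower in KO ESCs (2.17% each, beside 3.84% and 2.29% of all genes). At week 1 the counts were 7 and 4 of 48 (14.6% and 8.33%, beside 8.37% and 6.22%), and at week 2 they were 8 and 5 of 57 (14% and 8.77%, beside 10.0% and 6.42%). At week 3 they were 10 and 0 of 57 (17.5% and 0%, beside 7.65% and 7.69%). The 10 of week 3 were Frzb, Wif1, Notum, Apcdd1, Sp5, T, Ccnd1, Tnfrsf19, Rspo2 and Nkd2. The lists of co-receptors, Wnt secretion, nuclear factors and planar polarity held none of them. With 6, 2, 11 and 6 genes compared, these lists were too short to read such an absence beside 7.65% of all genes.

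Axin2, the feedback inhibitor that beta-catenin itself induces, read 2.80, 2.83, 5.16 and 7.45 in WT and 1.49, 5.48, 8.26 and 9.92 in KO. It was 1.87-fold higher in WT ESCs and, in the other direction, 1.93-fold higher in KO at week 1 (1.67 to 2.22), 1.60-fold at week 2 (1.44 to 1.78) and 1.33-fold at week 3 (1.21 to 1.46). Lef1, a partner of beta-catenin on DNA, read 1.93, 6.58, 4.92 and 4.80 in WT and 3.91, 7.30, 6.69 and 6.05 in KO, and thus went against Axin2 in ESCs. Sp5, a direct target, was low, with 0.322, 0.234, 0.905 and 0.605 in WT and 0.255, 0.742, 0.688 and 1.71 in KO.

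T, the primitive streak gene, was higher in WT at week 2 and in KO at week 3, with 0.619, 0.618, 6.02 and 6.54 in WT and 0.588, 0.420, 2.93 and 11.6 in KO. Notum, an enzyme that removes the lipid from Wnts, read 2.56, 0.202, 1.78 and 3.90 in WT and 2.58, 0.619, 7.58 and 8.69 in KO, which is 4.26-fold at week 2 (3.46 to 5.27) and 2.23-fold at week 3 (1.91 to 2.62). Apcdd1, a membrane inhibitor of Wnt signals, stood at 1.73, 5.49, 13.8 and 10.2 in WT and 1.85, 6.04, 17.5 and 45.9 in KO, with 4.49-fold more in KO at week 3 (4.16 to 4.85). Tnfrsf19, a receptor induced by Wnt signals, read 2.17, 9.29, 17.6 and 9.54 in WT and 2.37, 17.5, 19.96 and 20.3 in KO. Of these 7 genes Notum, Apcdd1, Tnfrsf19, Sp5 and T were 1.5-fold or more higher in KO at week 3, beside 7.65% of all genes compared. Notum, Apcdd1 and Tnfrsf19 were named for a large mean difference over stages that include week 3. This count therefore does not speak for the lists.

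**Figure D5:**
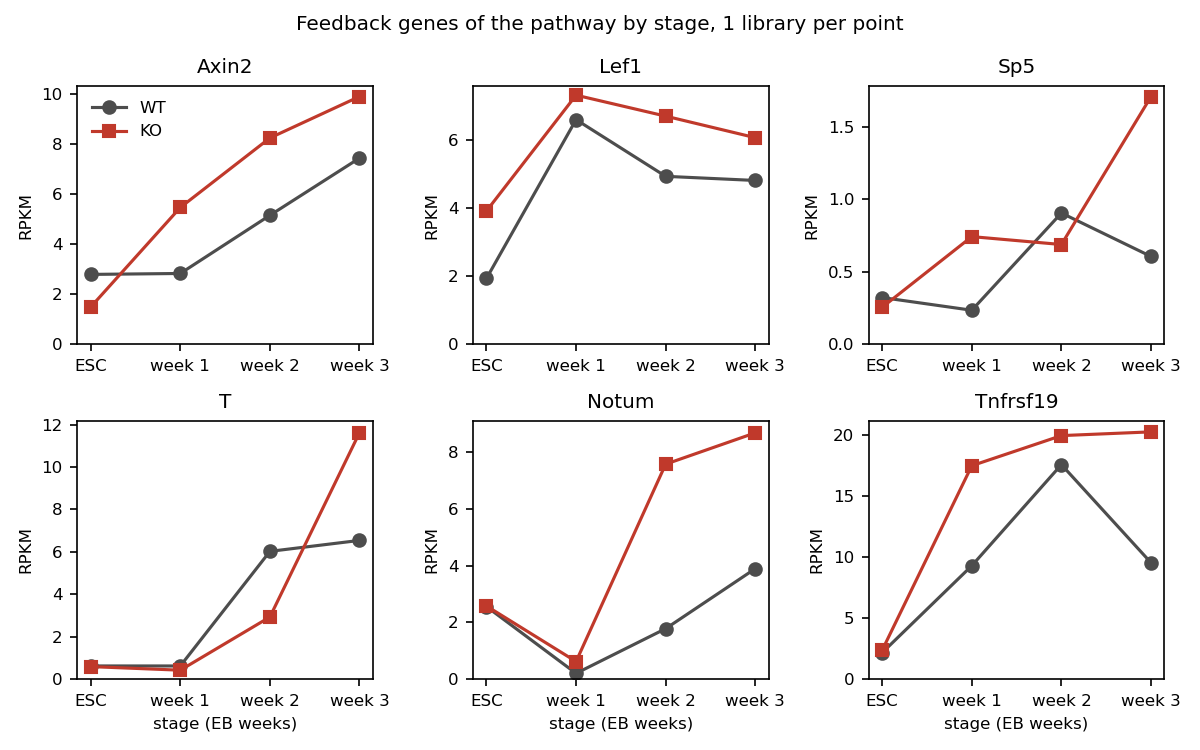
RPKM (vertical axes from 0, each panel on its own scale) of 6 feedback genes and targets of the pathway by stage, with WT as grey circles and KO as red squares, 1 library per point. At week 3 all 6 read higher in KO, while in ESCs Axin2 read lower and Lef1 higher. Notum and Tnfrsf19 were picked for their large mean difference. Targets not plotted went both ways at week 3, with Ccnd1 at 37.1 in WT and 76.2 in KO and Myc at 11.0 and 8.61.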

How the data were processed

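RNA of 8 libraries, 1 per group, was analysed, with groups taken from the sample labels. Per the submitters' notes, TopHat 1.1.4 with Bowtie 0.12.7 mapped the reads to mm9, SAMtools 0.1.18 handled the alignments, and Cufflinks 1.1.0 gave RPKM for RefSeq genes. The authors deposited log2 of RPKM + 1 (the unit was read from the values), and the added 1 was removed before levels were printed. Depth, and from it reads per gene and intervals, was estimated from the smallest RPKM steps of 5676 genes, where 54.8% to 64% of low values lay within 0.15 of a whole read. Ratios of single genes are of RPKM, and calls used RPKM + 1 and 1.5-fold. limma 3.58.1 (R 4.3.3, empirical Bayes with a mean trend, Benjamini-Hochberg adjustment) was fitted to genes reaching an RPKM of 1 in 2 or more libraries. Stage counts and limma contrasts were also tested on simulated data. For the added limma term of the KO effect in EBs against ESCs, that test recovered 2% of changes of 1 and 47% of changes of 2 on the log2 scale among 13249 genes. It recovered 83% and 95% for KO against WT and 70% and 93% for EBs against ESCs. False calls numbered 6, 11 and 8 in the order given. The simulated noise was independent between libraries, which the real libraries need not follow. Its spread was the one left after the empirical Bayes step, and each added change had the same size in every library that it touched. The recovered shares therefore do not give the share of real changes that the fit would call.

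The genes and lists were chosen with earlier results of these data known. Genes whose RPKM reached 5 in any library, or called by limma, are given in all 8 libraries. Of the other pathway genes the text names those called by limma for KO against WT, the 3 with the largest mean difference at an RPKM of 5 or more, and Axin2, Lef1, Sp5 and T. Values of Sfrp5 and of the ligands under RPKM 5 were chosen after they were seen. Coordinates are from GENCODE M1 (mm9), found for 36 of the 37 genes, and promoters from RefSeq (GRCm38.p6). Alternatives were 3 scalings, a pseudocount of 0.1, a filter at RPKM 5 or none, a 2-fold threshold, no mean trend and leaving out each stage, and, chosen after seeing the data, the requirement of an RPKM of 1 in both libraries. Other work was done in Python 3.11.15 (scipy 1.17.1, pandas 2.3.3, numpy 2.4.6, matplotlib 3.10.9).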

Additional observations from a re-analysis of the deposited data

How the results depend on the processing

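With a single library per group, no repeat culture limits these differences, and counting error is widest in the shallow KO EB libraries and for ligands under an RPKM of 1. No direction of a called gene turned under any alternative run. At a single stage a changed pseudocount or filter cannot turn a direction, and the scalings shifted differences by far less than 1.5-fold. For the stage calls this result was therefore largely fixed in advance. Of the calls of single genes at a stage, 205 of 212 alternative values stayed past 1.5-fold, and of those for EBs against ESCs 168 of 172 stayed called. Both totals leave out settings in which a gene was removed by the filter, and the 212 also leave out the 2-fold threshold. Calls lost in those ways show only in the counts below.

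The counts of genes 1.5-fold or more apart moved as follows. In ESCs the number higher in KO was 2 with a pseudocount of 0.1, and the number lower was 0 at 2-fold. At week 1 the number higher was 3 at 2-fold, and the number lower was 1 with a filter at RPKM 5 and 1 at 2-fold. At week 2 the number higher was 3 with a filter at RPKM 5, 1 at 2-fold and 4 with RPKM 1 required in both libraries. The number lower at week 2 was 2 with a pseudocount of 0.1, 2 with median ratios, 4 with an equal RPKM total, and 0 with a filter at RPKM 5, at 2-fold and with RPKM 1 in both libraries. At week 3 the number higher was 8 with a filter at RPKM 5 and 6 at 2-fold. The number lower at week 3 was 4 with a pseudocount of 0.1, 3 with upper-quartile scaling, 3 with an equal RPKM total, and 0 with a filter at RPKM 5, at 2-fold and with RPKM 1 in both libraries.

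Over all genes the numbers higher and lower in KO at 1.5-fold were 424 and 253 in ESCs, 968 and 720 at week 1, 1270 and 814 at week 2 and 998 and 1003 at week 3. At 2-fold they were 113 and 36, 395 and 228, 521 and 310, and 426 and 386. With a pseudocount of 0.1 they were 690 and 411 in ESCs, and with a filter at RPKM 5 the numbers were 278 higher in ESCs, 528 at week 1 and 705 at week 2, and 662 and 538 at week 3. With RPKM 1 in both libraries 793 were higher at week 2 and 632 lower at week 3. With an equal RPKM total the split was 344 and 367 in ESCs, 1009 and 1084 at week 2 and 786 and 1373 at week 3, and the median of all genes at week 2 and week 3 moved from 0.05 and 0.02 to -0.06 and -0.10. The limma fit without ESCs called 6 genes for KO against WT in place of 0, and the added term called 0 in place of 1 with no filter, with no mean trend, and without week 1 or week 3. The labels give no replicate numbers, and WT and KO were paired by stage alone.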

Other observations

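Wls, which carries Wnts to the cell surface, was the pathway gene with the largest EB to ESC difference among the 58 fitted, at 5.06 ± 0.21 on the log2 scale (SE, limma adjusted p = 8.98e-05). It read 2.83, 103, 129 and 81.2 in WT ESCs and weeks 1 to 3, and 1.61, 80.8, 128 and 116 in KO. Porcn, the enzyme that attaches the lipid to Wnts, fell by 1.00 (limma adjusted p = 0.00208), so the 2 genes of Wnt secretion moved in opposite directions. Among the nuclear factors Lef1 rose by 0.88 in EBs (limma adjusted p = 0.00286) while Tcf7 and Tcf7l1 fell by 2.12 (adjusted p = 0.000367) and 0.55 (adjusted p = 0.0101). Rspo3, a secreted enhancer of Wnt signals, rose by 3.43 (limma adjusted p = 7.29e-05) and Frzb, a relative of the Sfrp genes, by 3.10 (adjusted p = 0.000661). These genes were chosen after their values were seen, and their p-values share the limit given above for the EB to ESC contrast.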
